A study of Mus musculus with 8 samples.

Results

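RNA levels of 7 genes of myelin galactolipid metabolism, *Ugt8a*, *Fa2h*, *Gal3st1*, *Cers2*, *Elovl1*, *Galc* and *Aspa*, were examined in whole brains of newborn B × C females with and without maternal cadmium (Cd) exposure. The genes were chosen by symbol, as the rows of the count table whose Ensembl mouse identifier carries 1 of these names. All 7 were found among the 49585 identifiers of the table for the C57BL/6J genome, and all 7 were among the 23113 genes that passed the filter on genes without counts. B × C pups are F1 hybrids of C57BL/6J dams and CAST/EiJ sires. The dams drank water with cadmium chloride at 0 ppm (4 pups) or 50 ppm (4 pups) before and during gestation, so exposure reached the pups through the mother. The pups, labelled postnatal day 1, were collected within 24 h of birth, and each came from a different litter. Replicate numbers only name the brains of a dose. Each library was made from poly(A) RNA of a portion of 1 pulverized whole brain, so brain regions and cell types were not separated, and fewer cells of a type cannot be told apart from less RNA per cell.

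Myelin is the lipid-rich sheath that oligodendrocytes wrap around axons in the central nervous system and Schwann cells in peripheral nerves. Its most characteristic lipids are galactosylceramide and its sulfated form, sulfatide, which carry very long-chain and often 2-hydroxylated fatty acids. Oligodendrocytes make them by joining such a fatty acid to a sphingoid base to give ceramide, adding galactose to the ceramide and then, for sulfatide, a sulfate group. In the mouse brain most myelin is laid down after birth and the earliest in the brainstem and spinal cord, so a newborn brain is sampled near the beginning of the process.

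The deposited values are unnormalized numbers of reads on each gene, which total 22916434 to 30708087 in a brain. Levels are given as CPM (reads of a gene relative to the library's total, scaled alike in all brains) after TMM normalization, whose factors were 0.986 to 1.02. A count of 3, taken as the limit that a count of 0 allows, corresponds to 0.098 to 0.132 CPM, which covers counting error only. The doses were compared by the quasi-likelihood test of edgeR, with Benjamini-Hochberg correction across the 23113 genes, and a gene was called at an adjusted p under 0.05. Every p-value sets the difference between doses against the spread between pups of the same dose. That spread was estimated from 4 pups per dose, or fewer where brains were left out, with information shared across genes. In this test 4 genes were called, or 0.0173% of those tested, and 866 genes, or 3.75%, had an unadjusted p under 0.05. Of the latter, 534 (2.31% of all genes tested) had a positive and 332 (1.44%) a negative log2 fold change of 50 ppm over 0 ppm.

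The brains differed in the level of RNA from genes typical of the brainstem and spinal cord. The summed level of 12 genes of those regions, among them *Hox* genes and genes of glycinergic and cholinergic neurons, was 7.82 and 13.65 CPM in 0 ppm replicates 1 and 2 and between 58.6 and 175.5 CPM in the other 6 brains. Of these genes 11 were tested, 9 of them had an unadjusted p under 0.05 and a positive log2 fold change, and their median log2 fold change was 1.42. *Hoxa3*, whose exons overlap other annotated genes on both strands, was listed at 0 in every brain. The log2 fold changes of the 7 genes and of the list genes that differed most are therefore also given without both of those brains and with the mean log2 CPM of the list (the regional score) as a covariate. Both of these fits were chosen after the data had been seen. Regional scores ran from -2.156 to 1.658 in the control brains and from 1.802 to 2.893 in the exposed brains. Unlike the summed level, the score was thus higher in every exposed brain than in every control brain. Because score and dose go together in this way, the fit with the covariate cannot separate regional content from exposure.

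None of the 7 genes was called as different between the doses. The mean CPM at 50 ppm was above the mean at 0 ppm for *Ugt8a*, *Fa2h*, *Gal3st1*, *Aspa*, *Galc* and *Elovl1*, and close to it for *Cers2*. The largest log2 fold change was that of *Fa2h*, the least abundant of the 7, at 0.83 (SE 0.32, n = 4 and 4). Unadjusted p-values were under 0.05 for 4 of the 7 genes in edgeR's test (*Ugt8a*, *Fa2h*, *Gal3st1* and *Aspa*), against 2.31% of all genes for that p and direction. None had an unadjusted p under 0.05 with a negative sign. The adjusted p was 0.999 for each of the 7. DESeq2 and limma-voom also called none of the 7, with 4 and 3 of the 7 at an unadjusted p under 0.05 and a positive sign, against 1.79% and 2.95% of all genes.

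**Figure D1:**
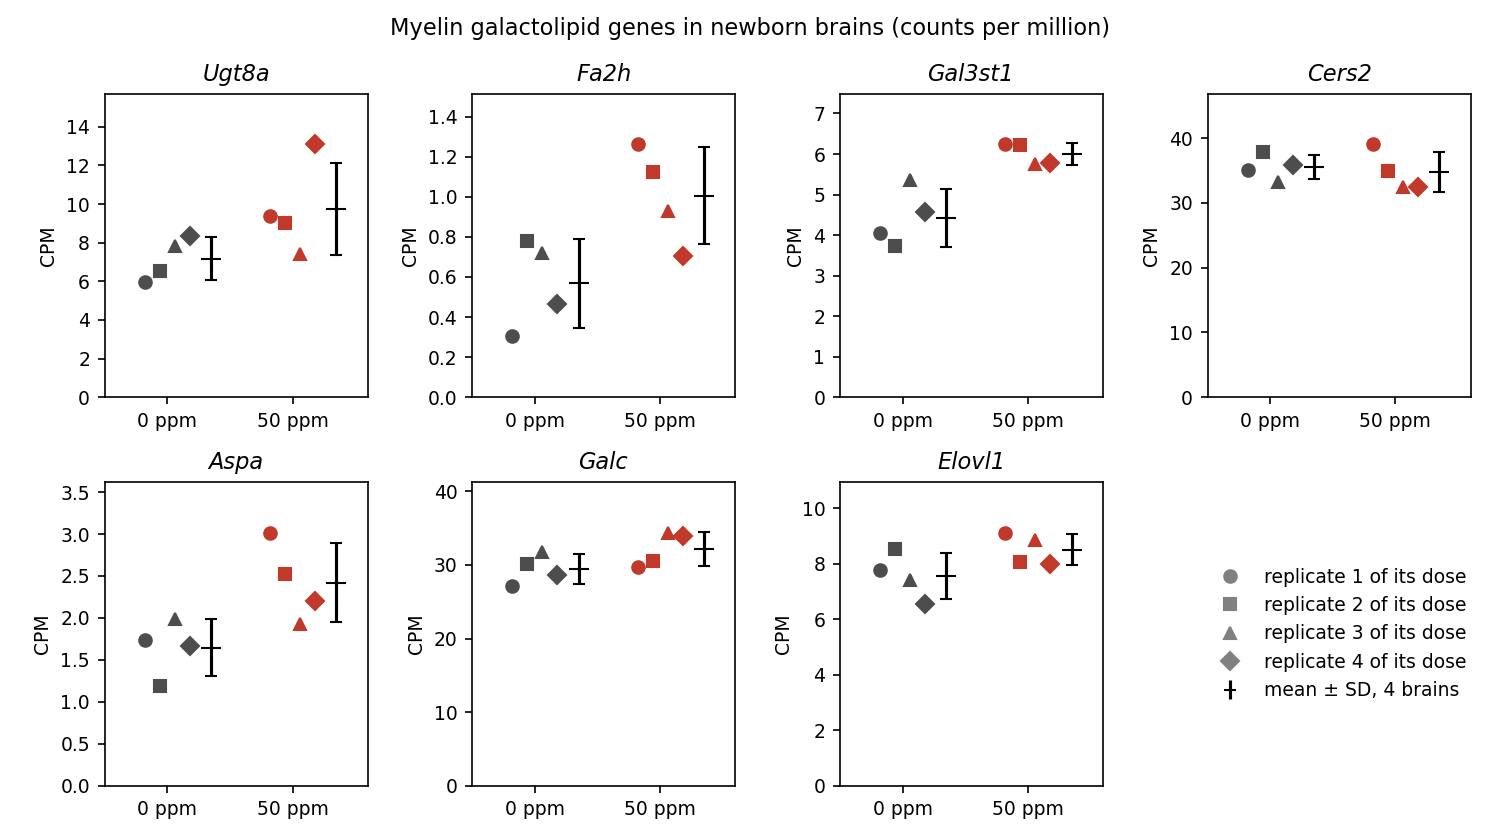
CPM (vertical axes, each from 0) of the 7 genes in the 4 brains of each dose, with 1 marker per brain and the mean ± SD beside them. The 4 exposed brains lie above the 4 control brains for *Gal3st1* alone, and for *Cers2* the exposed brains span the control range.

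*Ugt8a* (ENSMUSG00000032854, chr3:125865271-125938619, minus strand, GRCm38) encodes the enzyme that transfers galactose from UDP-galactose to ceramide. This is the step that commits ceramide to galactosylceramide. At 0 ppm the level of *Ugt8a* was 5.94, 6.55, 7.84 and 8.32 CPM in replicates 1 to 4, and at 50 ppm it was 9.40, 9.02, 7.42 and 13.1 CPM. Exposed replicate 4 was the highest of the 8 brains and exposed replicate 3 lay within the control range, so the groups overlapped. The means were 7.16 ± 1.11 and 9.74 ± 2.40 CPM (SD, n = 4 each), from 174 to 297 reads per brain. The log2 fold change was 0.44 (SE 0.17, 95% interval 0.09 to 0.79), with an unadjusted p of 0.0164 and an adjusted p of 0.999 by edgeR's quasi-likelihood test. A large share of the difference came from 1 brain, since without 50 ppm replicate 4 the log2 fold change was 0.27 with an unadjusted p of 0.103 by the same test.

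*Gal3st1* (ENSMUSG00000049721, chr11:3983636-3999326, plus strand) encodes cerebroside sulfotransferase, which turns galactosylceramide into sulfatide. Its level was 4.06, 3.72, 5.36 and 4.57 CPM in 0 ppm replicates 1 to 4 and 6.24, 6.21, 5.74 and 5.78 CPM in 50 ppm replicates 1 to 4. Every exposed brain was above every control brain, and the exposed brains lay closer together than the controls. This separation in that direction was found for 1 of the 7 genes and for 1.19% of all genes tested, while 0 of the 7 genes and 0.904% of all genes separated in the other direction. The means were 4.43 ± 0.711 and 6.00 ± 0.271 CPM, from 100 to 178 reads per brain. The log2 fold change was 0.44 (SE 0.15, 95% interval 0.12 to 0.75), with an unadjusted p of 0.00939, the smallest of the 7, and an adjusted p of 0.999.

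*Fa2h* (ENSMUSG00000033579, chr8:111345135-111393824, minus strand) encodes fatty acid 2-hydroxylase, which makes the 2-hydroxy fatty acids of myelin galactolipids. It was counted with only 9, 21, 22 and 12 reads in 0 ppm replicates 1 to 4 and 36, 32, 26 and 16 reads in 50 ppm replicates 1 to 4. These counts correspond to 0.307, 0.781, 0.718 and 0.465 CPM at 0 ppm and to 1.26, 1.12, 0.928 and 0.706 CPM at 50 ppm. Exposed replicate 4 lay below control replicates 2 and 3, so the groups overlapped, and 3 of the 4 exposed brains were above every control brain. The means were 0.568 ± 0.221 and 1.005 ± 0.242 CPM. The log2 fold change of 0.83 (95% interval 0.15 to 1.504) had an unadjusted p of 0.0193 and an adjusted p of 0.999, and its wide interval goes with the low counts.

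*Cers2* (ENSMUSG00000015714, chr3:95314791-95323599, plus strand) encodes the ceramide synthase that uses very long-chain acyl-CoA, and *Elovl1* (ENSMUSG00000006390, chr4:118428093-118432953, plus strand) the elongase that produces saturated and monounsaturated acyl chains of that length. *Cers2* was at 35.1, 37.8, 33.3 and 35.8 CPM in the control brains and at 39.1, 35.005, 32.5 and 32.4 CPM in the exposed brains. The exposed brains of *Cers2* included the highest and the lowest of the 8 values, and the log2 fold change was -0.03 (SE 0.09, 95% interval -0.21 to 0.15, unadjusted p = 0.734 by edgeR). With 735 to 1114 reads per brain, the interval of *Cers2* ends below the log2 fold change estimated for each of the 4 genes with an unadjusted p under 0.05. It overlaps the intervals of *Ugt8a*, *Gal3st1* and *Aspa*, which begin at 0.09, 0.12 and 0.10. Differences between *Cers2* and these genes were not tested. *Elovl1* was at 7.78, 8.52, 7.41 and 6.54 CPM at 0 ppm and at 9.12, 8.08, 8.85 and 7.98 CPM at 50 ppm. The groups of *Elovl1* overlapped through control replicate 2, and the log2 fold change was 0.17 (SE 0.13, 95% interval -0.10 to 0.44, unadjusted p = 0.199 by edgeR).

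*Galc* (ENSMUSG00000021003, chr12:98202294-98259459, minus strand) encodes galactosylceramidase, the lysosomal enzyme that removes galactose from galactosylceramide. It was at 27.2, 30.2, 31.8 and 28.6 CPM in the control brains and at 29.8, 30.5, 34.4 and 34.0 CPM in the exposed brains. Exposed replicates 3 and 4 lay above the control range and exposed replicates 1 and 2 within it, with a log2 fold change of 0.13 (SE 0.09, 95% interval -0.06 to 0.31, unadjusted p = 0.164 by edgeR). *Aspa* (ENSMUSG00000020774, chr11:73304992-73329596, minus strand) encodes aspartoacylase, which splits N-acetylaspartate in oligodendrocytes into aspartate and acetate that can enter lipid synthesis. It was at 1.74, 1.19, 1.99 and 1.66 CPM in the control brains and at 3.02, 2.53, 1.93 and 2.21 CPM in the exposed brains. The groups of *Aspa* overlapped by exposed replicate 3, which lay just below control replicate 3. The log2 fold change of *Aspa* was 0.55 (SE 0.22, 95% interval 0.10 to 1.01, 32 to 86 reads per brain), with an unadjusted p of 0.0203 and an adjusted p of 0.999 by edgeR's quasi-likelihood test.

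A part of the exon bases of 3 of the genes overlaps a gene on the opposite strand in the annotation, namely 5.96% of *Cers2*, 2.69% of *Galc* and 1.94% of *Elovl1*. The strand setting of the count is not given in the sources used here, so a few reads of these genes may belong to the other strand. No such overlap was annotated for *Ugt8a*, *Fa2h*, *Gal3st1* or *Aspa*.

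The estimates of the 4 genes with an unadjusted p under 0.05 were smaller in both added fits. Without 0 ppm replicates 1 and 2, the log2 fold change was 0.26 (SE 0.18) for *Ugt8a*, 0.75 (SE 0.37) for *Fa2h*, 0.27 (SE 0.18) for *Gal3st1* and 0.40 (SE 0.25) for *Aspa*. With the score as a covariate it was 0.21 (SE 0.21) for *Ugt8a*, 0.50 (SE 0.45) for *Fa2h*, 0.23 (SE 0.20) for *Gal3st1* and 0.35 (SE 0.29) for *Aspa*. In both fits edgeR called 0 of the 7 genes and gave 0 of them an unadjusted p under 0.05, against 2.24% of all genes without those brains and 2.15% with the covariate for positive values. The unadjusted p-values of these 4 genes by edgeR's quasi-likelihood test ran from 0.0537 to 0.171 without those brains and from 0.248 to 0.329 with the covariate. All 4 estimates kept their sign. Since the score separates the doses, smaller estimates and larger SEs with the covariate cannot be assigned to region or to exposure. The log2 fold change of *Elovl1* was 0.28 in both fits (SE 0.16 and 0.18), above its value over all 8 brains, that of *Galc* was 0.09 in both (SE 0.11 and 0.12), and that of *Cers2* stayed between -0.03 and 0.01.

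**Figure D2:**
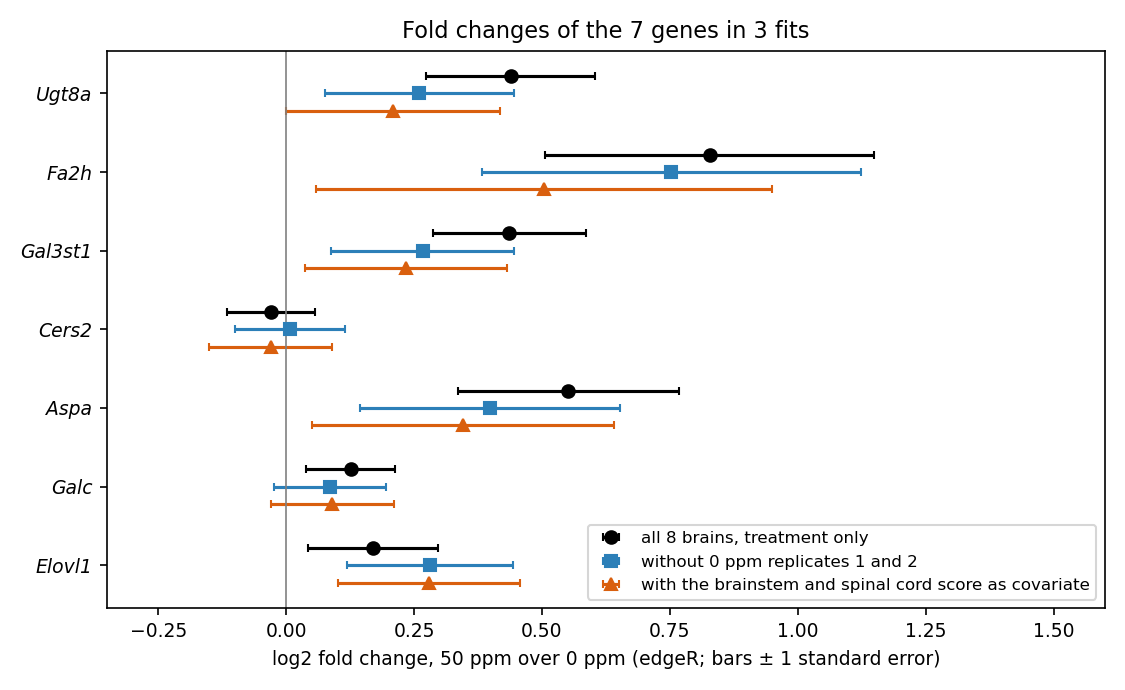
Log2 fold change of 50 ppm over 0 ppm (horizontal axis, bars ± 1 SE) of the 7 genes in edgeR's fit of all 8 brains, in the fit without 0 ppm replicates 1 and 2, and in the fit with the regional score of the brainstem and spinal cord list as covariate. The estimates of *Ugt8a*, *Fa2h*, *Gal3st1* and *Aspa* are lower in both added fits than over all 8 brains, while that of *Cers2* stays near 0.

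To compare levels between genes, reads were divided by exon length (RPKM, CPM per kb of exon). In control brains *Cers2* was the most abundant of the 7 genes at 9.66 ± 0.508 RPKM, and its range did not overlap that of the next gene. *Elovl1* (2.78 ± 0.301), *Gal3st1* (2.17 ± 0.348), *Galc* (1.98 ± 0.134) and *Ugt8a* (1.58 ± 0.244) followed, and the ranges of neighbours in this order overlapped. *Aspa* (0.277 ± 0.0563) and *Fa2h* (0.189 ± 0.0735) formed the lower end, with ranges that overlapped each other but not that of *Ugt8a*. At birth, the hydroxylase and the aspartoacylase were thus represented by less RNA per length than the galactosyltransferase and the sulfotransferase. In the plot of CPM by brain the same genes carry the fewest reads.

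*Cers2* and *Elovl1* each belong to a family whose members differ in the chain length they handle. Among the 6 ceramide synthases *Cers5* had the highest RPKM in control brains (20.5 ± 0.871), followed by *Cers6* (11.4 ± 0.320), *Cers1* (9.87 ± 1.14) and *Cers2*. The control ranges of *Cers6* and *Cers1* overlapped, as did those of *Cers1* and *Cers2*. In the annotation 42.5% of the exon bases of *Cers1* overlap *Gdf1* on the same strand, so some of its reads may not have been assigned. The level of *Cers1* may therefore be too low, and its place in this order is uncertain. *Cers4* (6.86 ± 0.852) and *Cers3* (0.325 ± 0.102) were below them. The log2 fold changes of *Cers1*, *Cers4*, *Cers5* and *Cers6*, those of the family with most reads besides *Cers2*, lay between -0.05 and 0.05. Among the elongases, *Elovl4* (32.4 ± 1.63 RPKM), *Elovl5* (21.6 ± 1.62), *Elovl2* (20.7 ± 0.754) and *Elovl6* (16.7 ± 1.66) were all above *Elovl1*, while *Elovl7* (1.46 ± 0.323) was below it. *Elovl3* had at most 1 read in a brain and was not tested.

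The other genes of the pathway were examined in 6 lists of 72 genes in all, of which 69 were tested. None was called by edgeR, and 1 of the 69 had an unadjusted p under 0.05, against 3.75% of all genes tested. The median log2 fold change of the 69 genes was -0.002, against -0.003 over all genes tested and 0.44 over the 7 galactolipid genes. Of the 69 genes 33 had a positive and 36 a negative log2 fold change.

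The list of ceramide synthesis (15 of 16 tested) had a median log2 fold change of 0.0003, and none of its genes had an unadjusted p under 0.05. Its smallest p-values belonged to *Sptssb*, a small subunit of serine palmitoyltransferase (0.57, SE 0.34, unadjusted p = 0.114 by edgeR), to the dihydroceramide desaturase *Degs1* (0.11, SE 0.07) and to *Ormdl2* (-0.27, SE 0.20), a member of the family of inhibitors of serine palmitoyltransferase. The most abundant gene per length, *Ormdl3* of the same family, was at 90.4 ± 4.98 and 85.7 ± 6.06 CPM. *Ormdl1* had at most 1 read in a brain.

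In the list of fatty acid synthesis, elongation and desaturation (17 of 18 tested) log2 fold changes lay between -0.13 and 0.15, with a median of -0.0003. *Hacd1*, a dehydratase of the elongation cycle, had the smallest unadjusted p (0.169 by edgeR, log2 fold change 0.15, SE 0.10), followed by *Elovl6* (-0.11, SE 0.08) and *Elovl4* (0.09, SE 0.08). The desaturase *Scd2*, the most abundant of the list, was at 1342 ± 151 CPM in the control and 1301 ± 138 CPM in the exposed brains. Without 0 ppm replicates 1 and 2 its log2 fold change was -0.18 (SE 0.08, unadjusted p = 0.0422 by edgeR). That of *Scd1* was -0.37 (SE 0.13, unadjusted p = 0.00853). With the regional score as covariate they were -0.16 (SE 0.10, unadjusted p = 0.134) and -0.40 (SE 0.16, unadjusted p = 0.0258).

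The suppliers of UDP-galactose and of the sulfate donor PAPS (8 of 9 tested) held no gene with an unadjusted p under 0.05 over all 8 brains. Their median log2 fold change was 0.01. *Ugp2*, which makes UDP-glucose, had a log2 fold change of 0.09 (SE 0.08), the PAPS synthase *Papss2* of 0.19 (SE 0.24) and the PAPS transporter *Slc35b2* of 0.04 (SE 0.09). The more abundant PAPS synthase, *Papss1*, was at 131 ± 2.01 and 129 ± 5.61 CPM. *Galt* was listed at 0 in every brain. Whether its reads were counted at all is not known.

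Enzymes that use ceramide for other lipids, namely glucosylceramide and gangliosides, sphingomyelin and ceramide phosphate, were 10, all tested, with none at an unadjusted p under 0.05. Their median log2 fold change was -0.02, and 8 of the 10 values were negative. The ganglioside synthases *B4galnt1* (-0.08, SE 0.07) and *St8sia1* (-0.06, SE 0.07) and the sphingomyelin synthase *Sgms2* (-0.30, SE 0.27) had the smallest p-values. *Ugcg*, which adds glucose where *Ugt8a* adds galactose, was at 127 ± 10.4 and 123 ± 9.55 CPM, with a log2 fold change of -0.05 (95% interval -0.21 to 0.11). The lactosylceramide synthase *B4galt6*, the most abundant of the list, had a log2 fold change of 0.01 (SE 0.08).

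Sphingolipid breakdown, the side of the pathway on which *Galc* lies, was represented by 11 tested genes with a median log2 fold change of 0.02 and none at an unadjusted p under 0.05. The ceramidases *Asah2* (0.25, SE 0.17), *Acer3* (0.12, SE 0.11) and *Acer2* (0.11, SE 0.16) had the smallest p-values. *Psap*, the precursor of the saposins that assist lysosomal sphingolipid hydrolases, was the most abundant at 834 ± 36 and 848 ± 49.4 CPM. *Arsa*, the arylsulfatase that removes the sulfate that *Gal3st1* adds, was at 29.5 ± 2.58 and 29.4 ± 2.06 CPM, with a log2 fold change of -0.01 (95% interval -0.20 to 0.18), and is named besides the listed choices as the counterpart of *Gal3st1*.

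Over all 8 brains, the 1 pathway gene with an unadjusted p under 0.05 was *Folh1*, in the list of N-acetylaspartate and acetate metabolism (8 tested, median log2 fold change 0.02). It encodes glutamate carboxypeptidase II, which releases N-acetylaspartate from its dipeptide with glutamate, a step before that of *Aspa*. *Folh1* was at 1.37, 1.79, 2.09 and 1.97 CPM in the control brains and at 3.12, 2.25, 3.35 and 3.48 CPM in the exposed brains. All exposed brains were above all control brains, which held for 1 of the 69 pathway genes tested and for 1.19% of all genes. The log2 fold change of *Folh1* was 0.75 (SE 0.21, unadjusted p = 0.00175, adjusted p = 0.703 by edgeR's quasi-likelihood test). Its log2 fold change was 0.58 (SE 0.24, unadjusted p = 0.0253 by edgeR) without 0 ppm replicates 1 and 2. With the regional score as covariate it was 0.52 (SE 0.27, unadjusted p = 0.0729 by edgeR). The synthases of that dipeptide, *Rimklb* (0.05, SE 0.07) and *Rimkla* (0.05, SE 0.07), and *Acly* (-0.04, SE 0.08), which makes cytosolic acetyl-CoA, were near 0.

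**Figure D3:**
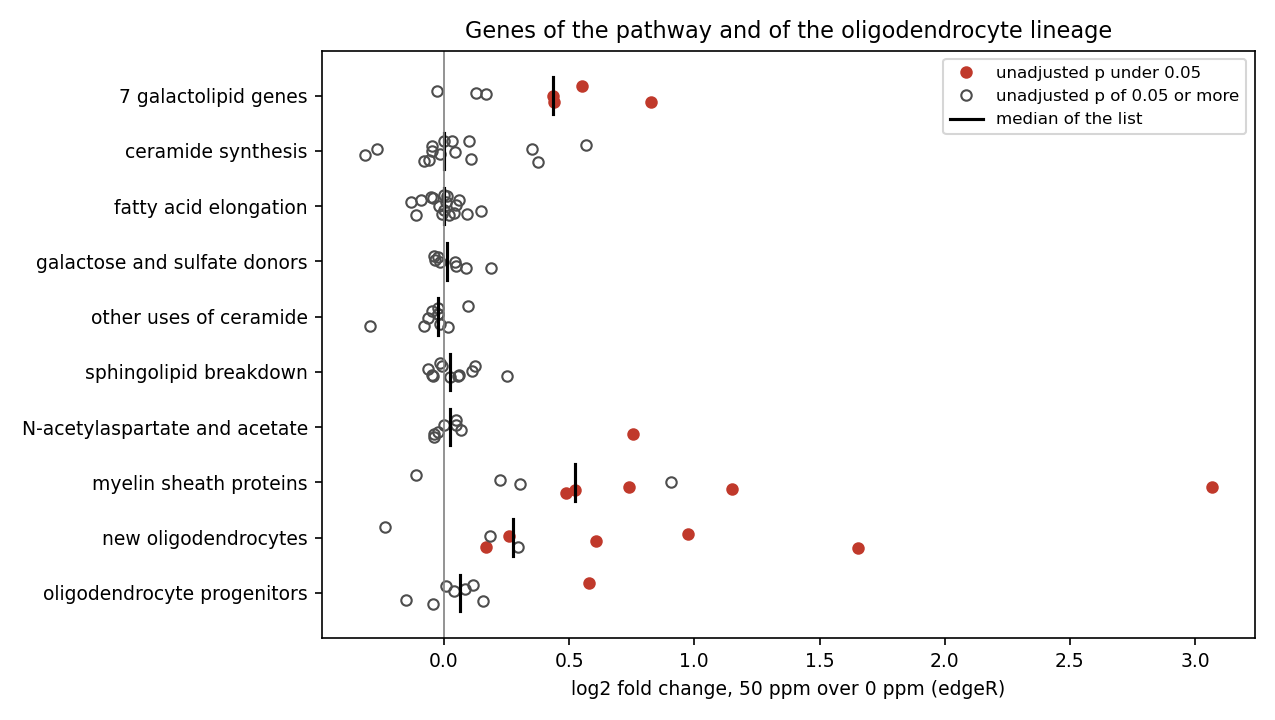
Log2 fold change of 50 ppm over 0 ppm (horizontal axis) of every tested gene of the 7 galactolipid genes, the 6 pathway lists and 3 lists of the oligodendrocyte lineage, with 1 point per gene, filled where the unadjusted p was under 0.05, and a bar at the median. Medians of the pathway lists lie between -0.02 and 0.02, and those of the 7 genes and of the myelin sheath proteins at 0.44 and 0.52.

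The 7 genes were set beside markers of the oligodendrocyte lineage in the same brains. The summed level of 9 myelin sheath protein genes was 128, 116, 148 and 139 CPM in the control brains and 192, 206, 149 and 221 CPM in the exposed brains, so all exposed brains were higher, exposed replicate 3 by the smallest margin. None of the 9 genes was called here by edgeR. With DESeq2 the study listed *Mag*, *Mbp* and *Cnp* as significantly higher after correction, in the alignments to both parental genomes. *Mag* (log2 fold change 1.15, SE 0.22), *Mbp* (0.49, SE 0.10), and *Cnp* (0.52, SE 0.11) were among the 5 with an unadjusted p under 0.05, all with a positive sign. Without 0 ppm replicates 1 and 2 the log2 fold changes were 0.89 for *Mag*, 0.41 for *Mbp* and 0.33 for *Cnp* (SE 0.24, 0.12 and 0.11), and with the regional score as covariate 0.77, 0.40 and 0.31 (SE 0.28, 0.14 and 0.13). The late marker *Opalin* had at most 2 reads and *Mog* 3 to 11 reads in a brain.

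Of 8 genes of newly formed oligodendrocytes *Bcas1* was higher at 50 ppm by the adjusted test, at 9.96 ± 2.18 and 19.6 ± 3.24 CPM (adjusted p = 0.0375 by edgeR). With DESeq2 the study listed both *Bcas1* and *Enpp6* as significantly higher after correction. *Bcas1* was not called in either added fit, with a log2 fold change of 0.97 over all 8 brains, 0.73 (SE 0.15, adjusted p = 0.102 by edgeR) without 0 ppm replicates 1 and 2 and 0.59 (SE 0.16, adjusted p = 0.899) with the regional score. Counting *Bcas1*, 5 of them had an unadjusted p under 0.05 and a positive sign, including *Enpp6* (1.65, SE 0.30) and the myelin regulator *Myrf* (0.61, SE 0.20), whose log2 fold changes were 1.27 and 0.37 without 0 ppm replicates 1 and 2 and 1.02 and 0.21 with the regional score. The summed level of the list was 318 ± 54.2 and 325 ± 20.03 CPM. Its largest part was *Tcf7l2*, at 170.3 ± 45.2 and 144.5 ± 28.8 CPM, with a log2 fold change of -0.24 (SE 0.16). That of *Tcf7l2* was -0.43 (SE 0.13) without 0 ppm replicates 1 and 2 and -0.45 (SE 0.18) with the regional score. Since *Tcf7l2* dominates the sum, the sum is not read as the content of newly formed oligodendrocytes. The 8 genes of oligodendrocyte progenitors summed to 1112 ± 84.7 and 1147 ± 81.6 CPM, most of it *Ptprz1*, with a median log2 fold change of 0.06. Of these, *Gpr37l1* had an unadjusted p under 0.05 (0.58, SE 0.18), and *Lhfpl3* (0.16, SE 0.10) and *Olig2* (-0.15, SE 0.10) had the next smallest p-values.

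Divided by the myelin sheath sum of the same brain, the groups of *Ugt8a*, *Gal3st1*, *Fa2h* and *Aspa* overlapped. *Ugt8a* amounted to 4.63, 5.63, 5.30 and 5.97% of that sum in the control brains and to 4.89, 4.37, 4.97 and 5.94% in the exposed brains. *Gal3st1* amounted to 3.32 ± 0.210% and 3.18 ± 0.515%, *Aspa* to 1.23 ± 0.157% and 1.27 ± 0.234%, and *Fa2h* to 0.433 ± 0.189% and 0.536 ± 0.151%. *Cers2*, in contrast, amounted to 27.4, 32.5, 22.5 and 25.7% in the control brains and to 20.3, 16.96, 21.8 and 14.7% in the exposed brains, which were all lower. The sum itself was higher in every exposed brain, and 24.8% of all genes tested were likewise lower in every exposed brain when divided by it, against 0.164% that were higher in every one. Groups overlapped for *Galc* (22.3 ± 2.47% and 17.2 ± 3.93%) and *Elovl1* (5.78 ± 1.19% and 4.55 ± 1.03%). These ratios were not tested, and *Mbp* and *Cnp* make up a large part of the sum. With the median of the ratios to the 7 of these markers that had reads in every brain in place of the ratio to the sum, the log2 difference between doses was 0.21 in place of -0.09 for *Ugt8a* and 0.23 in place of -0.06 for *Gal3st1*.

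Divided by the sum of the progenitor genes, *Gal3st1* amounted to 0.349, 0.373, 0.452 and 0.415% in the control brains and to 0.591, 0.546, 0.504 and 0.460% in the exposed brains, which were all higher. *Aspa* also did not overlap, by a margin of 0.168 against 0.169% between the nearest brains. Of all genes tested 0.826% were higher and 0.787% lower in every exposed brain relative to this sum. *Ugt8a* amounted to 0.646 ± 0.102% and 0.845 ± 0.165%, with overlapping groups. Most of this sum is *Ptprz1*, so these ratios depend mainly on its level, and they were not tested.

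**Figure D4:**
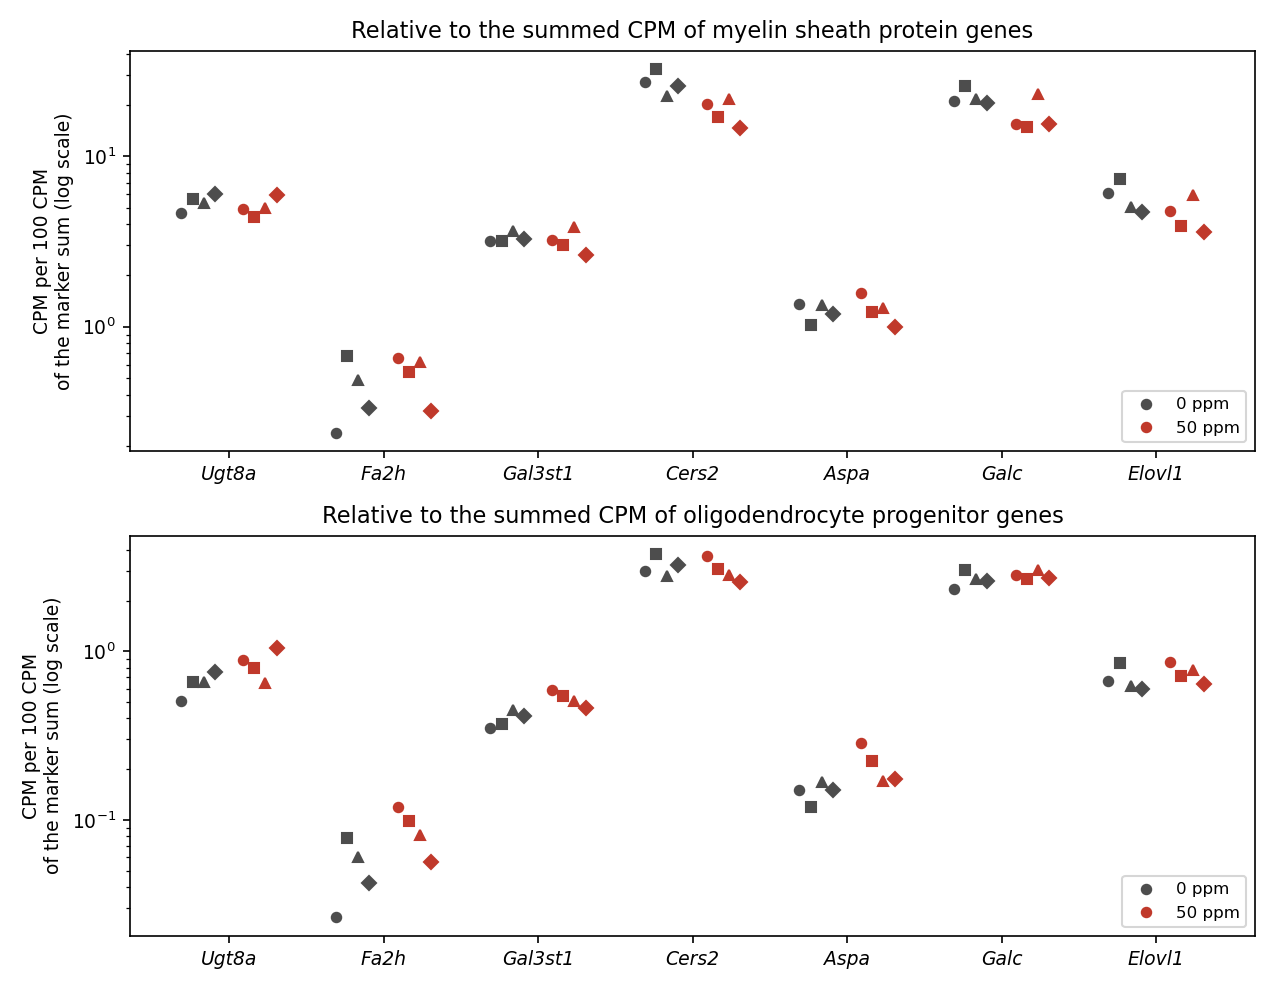
CPM of each gene as percent of the summed CPM of the myelin sheath protein genes (upper panel) and of the oligodendrocyte progenitor genes (lower panel) of the same brain, on log axes, with 1 point per brain. Relative to the myelin sheath sum the doses overlap for *Ugt8a*, *Fa2h*, *Gal3st1* and *Aspa* and separate for *Cers2*, as for 24.8% of all genes in that direction, and relative to the progenitor sum they separate for *Gal3st1* and *Aspa*, as for 0.826% of all genes.

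Myelin galactolipids are also made by Schwann cells, whose RNA can reach a brain sample through nerve roots. The 9 Schwann cell genes, of which 1 is also in the myelin sheath list, summed to 26.5 to 35.9 CPM in the control brains and 33.9 to 54.6 CPM in the exposed brains. Of the 8 tested, 3 had an unadjusted p under 0.05, all with a positive sign, among them *Foxd3* (0.278 ± 0.142 and 0.606 ± 0.0941 CPM). Without 0 ppm replicates 1 and 2 the log2 fold change of *Foxd3* was 0.71 (SE 0.45) in place of 1.09. *Pmp2* was listed at 0 in every brain, but 86.9% of its exon bases overlap *Gm37389* on the same strand, so its reads may not have been assigned. The summed level of 5 astrocyte genes was 563 to 757 CPM at 0 ppm and 720 to 844 CPM at 50 ppm, and 3 of them, *Aqp4*, *Aldoc* and *Gfap*, had an unadjusted p under 0.05, with a positive sign. Without 0 ppm replicates 1 and 2 their log2 fold changes were 0.46, 0.16 and 0.83, in place of 0.71, 0.40 and 0.59. The 6 neuron genes summed to 2680 ± 150 and 2716 ± 89.9 CPM with none at an unadjusted p under 0.05 over all 8 brains. Without 0 ppm replicates 1 and 2 the log2 fold change was 0.31 for *Neurod6* and -0.25 for *Gad1* (unadjusted p = 0.00418 and 0.00387 by edgeR). With the regional score as covariate it was 0.42 and -0.27 (unadjusted p = 0.00111 and 0.0121 by edgeR). Neither gene was called in these fits, and the other neuron genes tested had an unadjusted p above 0.05 in both. *Tubb3*, a tubulin gene of neurons in general, was listed at 0 in every brain. The cause of that 0 was not tested, and it is not read as a level. The part of these cell types in the values of the 7 genes was not tested.

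The genes whose levels ran most nearly parallel to those of *Ugt8a*, *Fa2h* and *Gal3st1* were looked up among 14601, 14602 and 14601 genes with a mean of at least 1 CPM, by the root mean square (RMS) difference of the centred log2 CPM over the 8 brains. This likeness uses the difference between doses as well as that between brains of a dose, and is a description. The closest to *Ugt8a* was *Mbp*, the myelin basic protein gene, at an RMS difference of 0.146, followed by *Camk2d* (0.152), *Amn* (0.158), *Rasgrf1* (0.164) and *Gm4876* (0.164). *Mbp* was at 55.6, 51.5, 60.3 and 58.2 CPM in the control brains and at 80.8, 82.4, 60.7 and 92.6 CPM in the exposed brains. As for *Ugt8a*, its exposed replicate 3 was the lowest of the exposed brains and its exposed replicate 4 the highest. The closest to *Gal3st1* were *Sod3* (0.0931), *Thy1* (0.0983), *Tnfrsf11a* (0.103), *AI464131* (0.107) and *Fbxo2* (0.107). For *Fa2h* the nearest genes were farther away, with *Ngfr* at 0.216, *Gm2694* at 0.230, *Fcgr2b* at 0.261, *1700016P03Rik* at 0.279 and *Igf2os* at 0.304.

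Promoter windows of RefSeq (GRCm38.p6), reaching from 250 bases before to 50 after a transcription start, were found for 6 of the 7 genes. They are shown for *Ugt8a*, *Gal3st1* (the first of its 3 windows) and *Aspa*, the genes with an unadjusted p under 0.05 for which a window is given. Windows were searched on both strands for the metal response element cores TGCACNC and TGCGCNC, for CTGGCAC and CTGGTAC as motifs of the myelin regulator Myrf, and for ACAAAG and ACAATG as motifs of Sox proteins. Capitals mark the matches.
Ugt8a: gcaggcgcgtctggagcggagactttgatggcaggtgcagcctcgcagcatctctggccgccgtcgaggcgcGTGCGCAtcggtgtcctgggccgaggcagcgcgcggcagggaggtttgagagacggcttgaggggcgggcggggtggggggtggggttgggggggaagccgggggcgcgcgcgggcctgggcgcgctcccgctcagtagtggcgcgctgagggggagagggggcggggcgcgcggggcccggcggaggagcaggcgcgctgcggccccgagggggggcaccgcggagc
Gal3st1: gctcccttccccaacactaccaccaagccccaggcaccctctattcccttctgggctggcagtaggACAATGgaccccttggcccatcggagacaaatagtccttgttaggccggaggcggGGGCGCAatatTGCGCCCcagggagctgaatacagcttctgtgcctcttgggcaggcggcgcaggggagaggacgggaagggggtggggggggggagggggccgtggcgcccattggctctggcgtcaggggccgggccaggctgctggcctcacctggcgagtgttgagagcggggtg
Aspa: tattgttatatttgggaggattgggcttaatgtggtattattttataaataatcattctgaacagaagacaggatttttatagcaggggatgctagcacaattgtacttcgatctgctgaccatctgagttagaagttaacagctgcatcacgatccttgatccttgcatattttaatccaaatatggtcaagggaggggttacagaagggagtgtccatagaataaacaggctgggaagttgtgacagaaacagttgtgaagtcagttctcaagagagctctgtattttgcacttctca
The window of *Ugt8a* lies at chr3:125938603-125938902 on the minus strand, that of *Gal3st1* at chr11:3983386-3983685 on the plus strand and that of *Aspa* at chr11:73324588-73324887 on the minus strand, and each is printed in the direction of transcription.

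The window of *Ugt8a*, with a GC content of 78.3%, held TGCGCNC at 1 place, beginning 178 bases before the start (-178) and read on the opposite strand. The window of *Gal3st1*, with a GC content of 67%, held TGCGCNC at -129 on the opposite and at -118 on the printed strand, and ACAATG at -184. The window of *Aspa*, with a GC content of 39%, held none of the 6 motifs. Among all 32851 windows of RefSeq, 15.4% held TGCGCNC, 12.6% TGCACNC, 12.6% ACAATG, 18.7% ACAAAG, 5.01% CTGGCAC and 2.24% CTGGTAC, and the median GC content was 52.7%. Of the windows of the other genes, the second window of *Cers2* held TGCACNC at -232, and those of *Elovl1* and *Galc* held no match. The matches are those of letters in these windows and do not show that a factor binds there.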

How the data were processed

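Poly(A) RNA of whole brains of 8 newborn B × C females, 4 per dose, each from a different litter, was sequenced from directional libraries as single-end reads. The authors trimmed the initial bases, aligned reads with STAR and deposited raw read counts per gene from htseq-count for the C57BL/6J genome (GRCm38, Ensembl annotation), without normalization. Tool versions, strand setting and mapping quality minimum are not given in the sources used here. The table of the CAST/EiJ alignment was used for the count of called genes alone, since its identifiers could not be paired with the 7 genes. Reads were aligned to 1 parental genome, and the effect of paternal alleles on the counts of the 7 genes was not tested.

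By the rule stated in the study's methods, a gene had to have a count in at least 1/3 of the libraries, so that at most 5 of 8 were at 0. The study reported fewer genes for this alignment after its quality filtering than were tested here, so the sets of genes differ. Counts were normalized by TMM and tested with glmQLFit and glmQLFTest of edgeR 4.0.16 in R 4.3.3, with dose as the single term and Benjamini-Hochberg adjustment across the genes tested. SE was the absolute log2 fold change over the square root of F, and 95% intervals follow from the fit. The total count per library and the number of pups set the precision. RPKM were computed from the summed exon length of the GENCODE M21 annotation (GRCm38), a later release than that of the authors. Alternatives were DESeq2 1.42.0, its size factors in edgeR, no filter, at least 10 counts in at least 4 libraries, limma-voom (limma 3.58.1) with quality weights, a robust fit, each library left out, and, for ratios to marker sums, the median over markers. Named genes were the 7 members, and of each list up to 3 genes with the smallest p-value and the most abundant gene per length. The 5 genes most like *Ugt8a*, *Fa2h* and *Gal3st1* in log2 CPM (prior count 2) and the families of *Cers2* and *Elovl1* were also named. Others were named after their values were seen. These were *Arsa*, *Ugcg*, *Scd1*, *Neurod6* and list genes that were listed at or near 0 or dominate a sum. The members, lists, tests and naming rule were chosen with earlier results of these data known. Some single genes of the lists are not reported here. The code was tested on simulated data. Figures were drawn with matplotlib 3.10.9.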

Additional observations from a re-analysis of the deposited data

How the results depend on the processing

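None of the 7 genes was called under any of the 16 alternatives run for them, and the sign of the log2 fold change of *Ugt8a*, *Fa2h*, *Gal3st1*, *Aspa*, *Galc* and *Elovl1* was the same in all 16. The sign of *Cers2*, which is not called, turned without 0 ppm replicate 2 (0.0021), without 50 ppm replicate 3 (0.0082), without 50 ppm replicate 4 (0.0019) and without 0 ppm replicates 1 and 2 (0.0077), within a range of -0.088 to 0.0082 when each brain was left out. The number of the 7 genes with an unadjusted p under 0.05 was 2 to 4 with each brain left out, against at most 3.17% of all genes (2 without 0 ppm replicate 1, *Gal3st1* and *Aspa*, and 2 without 50 ppm replicate 1, *Ugt8a* and *Gal3st1*), and 0 without 0 ppm replicates 1 and 2 and 0 with the brainstem and spinal cord covariate, both chosen after seeing the data. Pathway genes with an unadjusted p under 0.05 were 1 to 2 with each brain left out (2 without 0 ppm replicate 4). They were 3 without 0 ppm replicates 1 and 2 and 1 with the covariate. The 3 were *Folh1*, with a positive sign, and *Scd1* and *Scd2*, both with a negative sign. With the covariate the gene was *Scd1*, again with a negative sign.

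Over all genes, 4 were called, against 18 with DESeq2, 52 with no filter, 2 where 4 libraries had to reach 10 counts, 1 with limma-voom, 2 to 20 with each brain left out (20 without 0 ppm replicate 3), 7 without 0 ppm replicates 1 and 2, and 2 in the alignment to the CAST/EiJ genome. The cause of these shifts was not tested. With the median over markers, log2 differences relative to the myelin sheath genes were 0.35 for *Aspa*, -0.25 for *Cers2*, -0.10 for *Galc*, -0.06 for *Elovl1* and 0.59 for *Fa2h*, in place of 0.05, -0.55, -0.38, -0.34 and 0.31, and with each brain left out that of *Fa2h* ranged from 0.11 to 0.60. *Fa2h* and *Aspa* rest on at most 36 and 86 reads per brain, which limits their precision. No paired analysis was possible because the pups came from different litters and the labels give no replicate numbers that both doses share.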

Other observations

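Among the 21 pairs of the 7 genes, the RMS difference of the centred log2 CPM over the 8 brains was smallest for *Galc* and *Elovl1* (0.144), *Cers2* and *Elovl1* (0.150), *Gal3st1* and *Aspa* (0.170) and *Cers2* and *Galc* (0.181), and it was at least 0.419 for every pair with *Fa2h*, the gene with the fewest reads. *Ugt8a* was nearest to *Gal3st1* (0.238). The summed CPM of the 7 genes, in which *Cers2* and *Galc* weigh most, was 82.2, 88.7, 88.4 and 85.9 in 0 ppm replicates 1 to 4. In 50 ppm replicates 1 to 4 it was 97.9, 92.4, 91.8 and 96.2, so that all exposed brains were above all control brains. This sum was not tested, and no share of comparable sums was computed. Taken singly, 1 of the 7 genes, *Gal3st1*, separated in that direction, against 1.19% of all genes tested.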
